A study of Mus musculus with 60 samples.

Results

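The genes described here are Pisd and 6 other genes of phosphatidylethanolamine synthesis and of the steps next to it, Ptdss1, Ptdss2, Pcyt2, Etnk1, Cept1 and Pemt. They were taken by symbol and are 7 of the 47574 entries used. 2 entries named as Pisd pseudogenes, Pisd-ps1 and Pisd-ps2, were read beside them. RNA-Seq was made from C57BL/6N mice aged 3 months, in 10 groups of 6 libraries (3 labelled male and 3 labelled female each), every group labelled cortex or striatum. In the Δ12 line, a knock-in made by CRISPR/Cas9 that deletes the end of the Htt exon the line is named after, the groups were +/+, Δ12/+ and Δ12/Δ12. In the KO line, which descends from 1 founder whose imprecise deletion also removed the splice donor of that exon, the groups were +/+ and KO/+, since KO/KO embryos did not survive. Levels are given as FPKM (fragments per kilobase of transcript, scaled to the mapped fragments of the library), rescaled so that the median ratio of the genes was alike in all libraries.

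Phosphatidylethanolamine (PE) is a major membrane lipid of the brain and is made by separate routes in separate membranes. In mitochondria, PISD removes the carboxyl group of phosphatidylserine (PS), and this supplies most PE of the inner membrane. In the endoplasmic reticulum, the CDP-ethanolamine or Kennedy route phosphorylates ethanolamine (ETNK1), activates it with CTP (PCYT2) and joins it to diacylglycerol (CEPT1 and the related EPT1). PS itself is made by exchange of head groups, by PTDSS1 from phosphatidylcholine and by PTDSS2 from PE. PEMT methylates PE to phosphatidylcholine and is known mainly from liver.

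The labels of the libraries were in part contradicted by their own transcripts. With libraries above 100 FPKM of Slc17a7, the vesicular glutamate transporter of cortical neurons, called cortex-like and the rest striatum-like, there were 30 of each, and 30 of the 60 were in the expression group of their tissue label. Deposited Slc17a7 was at least 121 FPKM in the cortex-like libraries and at most 64.8 FPKM in the striatum-like ones. All 24 libraries of the KO line were striatum-like. Within the Δ12 line the 24 libraries labelled +/+ or Δ12/+ and the 6 labelled Δ12/Δ12 male were cortex-like, and the 6 labelled Δ12/Δ12 female were striatum-like. Sex-linked transcripts went with the sex label in 30 of 60 libraries, and in 16 of 30 labelled mice both libraries showed the same sex-linked transcript. Htt, the targeted gene, was at most 12.6 FPKM as deposited in 6 of the 12 libraries labelled KO/+ and at least 15.1 FPKM in the other 6 and in the 12 labelled +/+ of that line. In 1 library the title and the genotype label name different lines, and it was kept in the KO line of its genotype label. Depth, estimated from the values of long low genes, was 12.7 to 27.5 M fragments. Tests below therefore compare labelled groups, and the expression groups, which are defined by measured values, are described with no test.

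FPKM are per length and can be set side by side between genes. In the cortex-like libraries the medians of rescaled FPKM ran from Etnk1 (30.5) through Cept1 (26.1), Pcyt2 (20.0), Pisd (15.7), Ptdss2 (9.61) and Ptdss1 (9.26) to Pemt (1.14). Pisd was above Ptdss2 in all 30 of these libraries, whereas Ptdss2 was above Ptdss1 in 14 of 30, so that the order of the 2 PS synthases was not fixed. Etnk1 was above Cept1 in 24 of 30, Cept1 above Pcyt2 in 25 and Pcyt2 above Pisd in 28. In the striatum-like libraries the order was Etnk1 (46.9), Pcyt2 (17.6), Cept1 (12.7), Ptdss1 (11.3), Pisd (10.2), Ptdss2 (6.89) and Pemt (0.539). Cept1 thus stood behind Pcyt2 there in 29 of 30 libraries, and Pisd behind Ptdss1 in 28 of 30. Pemt was the lowest member in both.

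**Figure D1:**
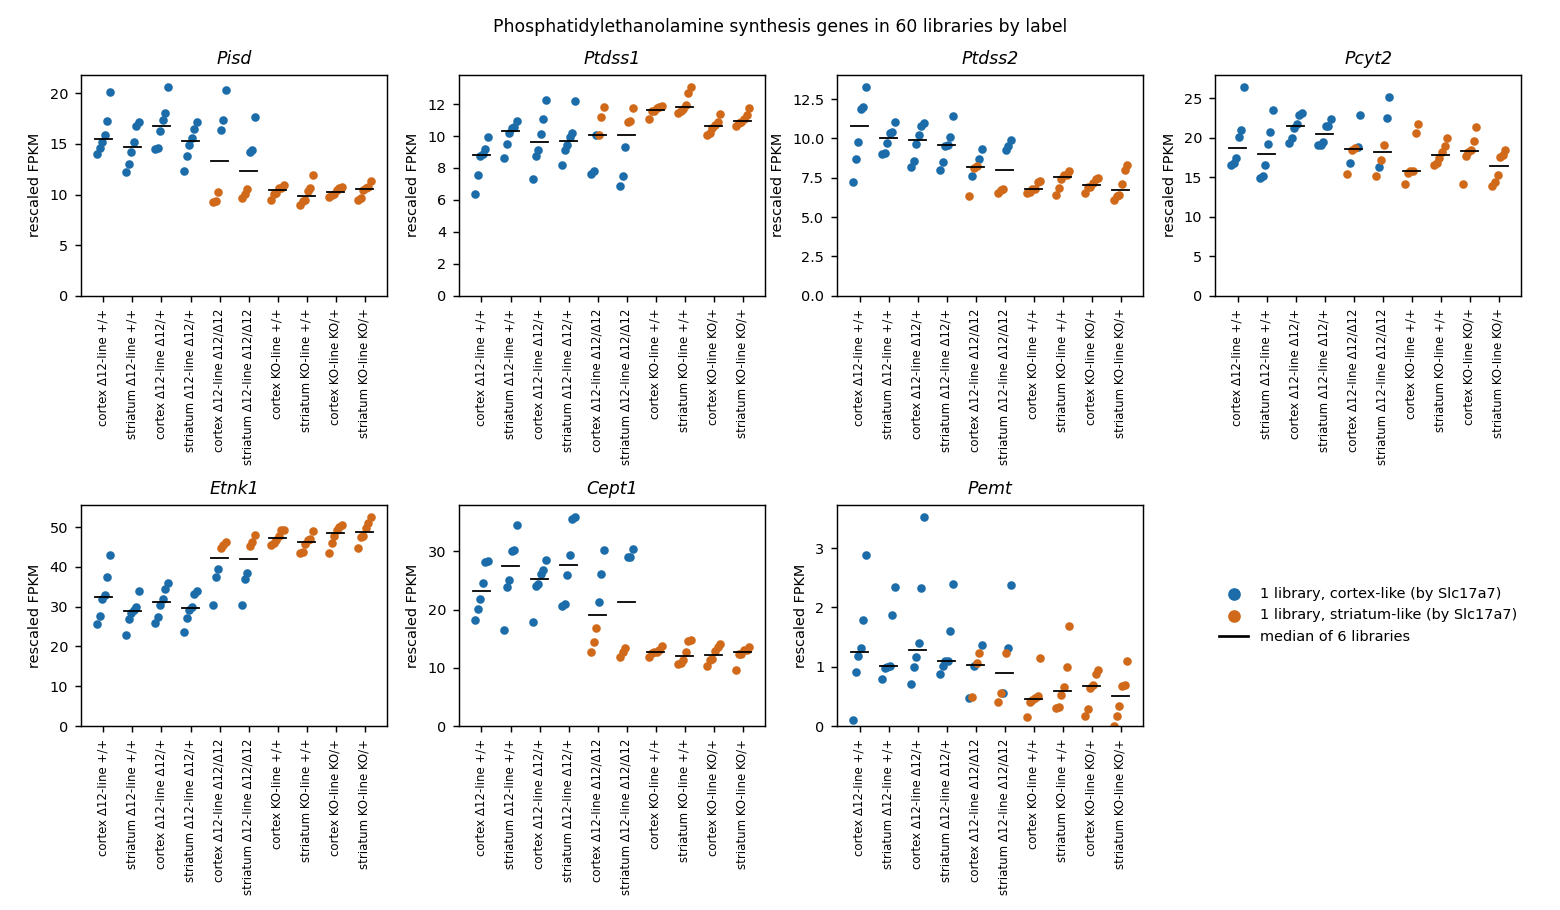
Rescaled FPKM of the 7 genes (vertical axes, each from 0) in the 10 labelled groups (horizontal axes), with 1 point per library, coloured by expression group, and a line at the median of the 6 libraries. In the panel for Pisd every cortex-like point lies above every striatum-like point, and in the groups labelled Δ12/Δ12 the 3 cortex-like and 3 striatum-like libraries stand apart.

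Pisd (ENSMUSG00000023452) lies on the minus strand of chr5:32736301-32785646 in GRCm38. Near copies elsewhere in the genome were looked at for Pisd alone, in the 2 entries named as its pseudogenes. Its start and those of Etnk1 and Cept1, the 3 members whose levels differed most clearly between the expression groups, are shown by the 250 bases before the RefSeq start (GRCm38.p6, 5′ to 3′). Windows from the same table exist for 5 of the 7 members, and for Pisd and Cept1, which have 2 and 3, the one that starts farthest upstream is shown. Capitals mark, on either strand, GGGCGG (the GC box of Sp and KLF factors), CCAAT (the NF-Y box), CCGGAAG (an ETS site) and TGACG (the core of a CRE).
Pisd, chr5:32785627-32785876, minus strand: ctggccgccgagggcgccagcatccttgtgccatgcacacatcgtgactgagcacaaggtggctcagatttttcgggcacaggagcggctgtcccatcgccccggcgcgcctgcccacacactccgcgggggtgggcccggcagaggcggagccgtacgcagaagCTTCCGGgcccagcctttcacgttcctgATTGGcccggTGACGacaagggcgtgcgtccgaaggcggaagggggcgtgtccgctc
Etnk1, chr6:143166980-143167229, plus strand: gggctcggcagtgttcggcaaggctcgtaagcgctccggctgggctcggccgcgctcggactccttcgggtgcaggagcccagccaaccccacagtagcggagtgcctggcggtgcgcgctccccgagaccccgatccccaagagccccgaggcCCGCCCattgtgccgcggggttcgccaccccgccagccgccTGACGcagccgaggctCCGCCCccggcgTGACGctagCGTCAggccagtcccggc
Cept1, chr3:106547803-106548052, minus strand: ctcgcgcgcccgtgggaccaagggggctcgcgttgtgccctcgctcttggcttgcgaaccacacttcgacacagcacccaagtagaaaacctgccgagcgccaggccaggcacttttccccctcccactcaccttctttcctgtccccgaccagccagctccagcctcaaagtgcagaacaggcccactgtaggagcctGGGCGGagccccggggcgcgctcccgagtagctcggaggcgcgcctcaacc
The Pisd window held 1 match each to the NF-Y box, the ETS site and the CRE core and none to the GC box. In the Etnk1 window there were 2 GC boxes and 3 CRE cores, and in the Cept1 window 1 GC box. The matches did not overlap. Among 32851 windows of this length, 32.74% held GGGCGG, 33.85% CCAAT, 6.91% CCGGAAG and 17.77% TGACG. No window of the 3 held CACGTG or GCATGCG, found in 6.02% and 3.02% of all windows. All 3 were rich in CpG, with 26 for Pisd, 31 for Etnk1 and 20 for Cept1 against a median of 6. The Pisd window not shown held 3 CpG, and those of Cept1 held 0 and 21.

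In rescaled FPKM, Pisd ran from 12.2 through a median of 15.7 to 20.6 in the 30 cortex-like libraries. In the 30 striatum-like libraries it ran from 8.94 through 10.2 to 11.9. The ranges did not overlap, and the cortex-like median was 1.54 times the striatum-like one. Pisd and Etnk1 were the 2 of 7 members without overlap, beside 36.1% of the 16107 entries with a mean of at least 0.5, so that a separation of this kind was common among all genes. In these bulk samples fewer cells of a type and less RNA per cell cannot be told apart. Of the 8 striatal projection neuron markers, 8 had the higher median in the striatum-like libraries, with a summed level of 1085 to 2095 against 108 to 569. Beside Slc17a7, which defined the groups, the 5 other cortical excitatory markers summed to 0.899 to 14.454 there against 14.469 to 29.8, and all 5 had the higher median in the cortex-like libraries. Other cell types moved too: the summed level of 6 oligodendrocyte markers was 815 to 1328 against 319 to 644 in the cortex-like libraries, that of 4 microglial markers 37.9 to 52.8 against 18.5 to 35.5, and that of 5 choroid plexus markers 35.0 to 2141 against 2.41 to 385. Within these lists Mog (42.9 in the cortex-like and 32.0 in the striatum-like libraries, medians) and P2ry12 (10.4 and 10.1) went the other way. The 3 leptomeningeal markers, like Pisd, were all higher in median in the cortex-like libraries, with a sum of 2.96 to 10.8 against 2.27 to 6.65. The sums of astrocyte markers (130 to 210 against 119 to 187) and endothelial markers (25.5 to 57.0 against 22.1 to 35.8) overlapped widely, but their genes were divided. Of the 5 astrocyte markers, 2 had the higher median in the cortex-like libraries and the others in the striatum-like ones. Cldn5 was higher in the cortex-like libraries (medians 34.1 and 14.6), whereas Pecam1 (1.57 and 3.93) and Flt1 (1.61 and 9.77) were lower there. Folr1, Kcnj13, Clic6 and Drd2 were listed at 0 in 1 or 2 cortex-like libraries, and the other markers were above 0 in every library. The part of these cell types in the result was not tested.

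The Pisd pseudogenes went the other way. Pisd-ps1 (chr11:3125904-3131004) had a median of 1.60 rescaled FPKM in the cortex-like libraries (0.333 to 4.13) and 2.94 in the striatum-like ones (1.05 to 6.99). Pisd-ps2 (chr17:3076578-3084183) had 1.14 (0 to 2.58) and 2.87 (1.64 to 4.17). Both ranges overlapped. Their transcripts hold close copies of a part of Pisd in the reference. Over 910 aligned columns that reach from base 345 of the transcript Pisd-201 to base 1254, Pisd-ps1-201 was 93.7% identical, with a longest identical run of 97 bases. Pisd-ps2-202 was 93.8% identical over 906 columns, with a longest run of 139 bases. The whole of Pisd-201 has 2183 bases, and the alignments covered 80.4% of the 1115 bases of Pisd-ps1-201 and 75.0% of the 1175 of Pisd-ps2-202. The 60 coding bases in which the 3 differ most (positions 511 to 570 of Pisd-201, chr5:32739149-32739208, minus strand, from the GENCODE M21 transcripts) show how a fragment may still be placed; capitals mark the 9 positions at which they are not all alike.
Pisd: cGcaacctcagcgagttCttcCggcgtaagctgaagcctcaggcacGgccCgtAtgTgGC
Pisd-ps1: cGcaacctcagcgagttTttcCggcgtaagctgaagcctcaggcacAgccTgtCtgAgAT
Pisd-ps2: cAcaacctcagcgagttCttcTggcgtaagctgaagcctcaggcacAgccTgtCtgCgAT
Pisd-ps1 differs from Pisd at 7 of these positions and Pisd-ps2 at 8. How fragments that match more than 1 of these loci were counted is not given in the sources used here, so the split between them is uncertain. Summed over the 3 entries, the level was 14.3 to 24.1 in the cortex-like libraries (median 18.8) and 13.0 to 19.3 in the striatum-like ones (median 16.0), and these ranges overlapped, unlike those of Pisd alone. Since FPKM are per length and the transcripts are of unlike length, this is not a sum of fragments. It cannot decide how the fragments were split. As a share of Pisd within each library, Pisd-ps2 had a median of 0.0682 in the cortex-like libraries (0 to 0.189) and 0.273 in the striatum-like ones (0.170 to 0.430), and 29 of the 30 striatum-like libraries were above every cortex-like one.

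Within the Kennedy route the members did not move together. Etnk1, the ethanolamine kinase (ENSMUSG00000030275, chr6:143167221-143232307), had the opposite pattern to Pisd: 23.0, 30.5 and 43.0 rescaled FPKM (lowest, median, highest) in the cortex-like libraries against 43.5, 46.9 and 52.4 in the striatum-like ones, without overlap and with a median 1.54 times as high in the latter. The gap between 43.0 and 43.5 was narrow. Pcyt2, the CTP-dependent step (ENSMUSG00000025137, chr11:120610087-120617936), differed little, with 14.9, 20.0 and 26.4 against 13.8, 17.6 and 21.7. Cept1, the final transferase (ENSMUSG00000040774, chr3:106502260-106547802), had 16.5, 26.1 and 35.8 against 9.62, 12.7 and 16.9. Its cortex-like median was 2.06 times the striatum-like one, and 29 of 30 cortex-like libraries were above all striatum-like libraries.

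The 2 PS synthases also differed from each other. Ptdss1 (ENSMUSG00000021518, chr13:66932830-66998401) had 6.34, 9.26 and 12.3 rescaled FPKM in the cortex-like libraries and 10.0, 11.3 and 13.1 in the striatum-like ones, and 20 of 30 cortex-like libraries were below all striatum-like ones. Ptdss2 (ENSMUSG00000025495, chr7:141122382-141157021) had 7.20, 9.61 and 13.3 against 6.11, 6.89 and 8.29, with 26 of 30 cortex-like libraries above all striatum-like ones. Pemt (ENSMUSG00000000301, chr11:59970614-60046489) was near the limit of these libraries at 0.103, 1.14 and 3.52 against 0, 0.539 and 1.68. The authors' confidence interval reached 0 for Pemt in 46 of 60 libraries, and its median relative width on one side was 139%, against 4.75% for Etnk1 and 11.4% for Pisd. Single values of Pemt are thus imprecise.

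Some of these directions depended on the scaling, since the scaling factors had a median of 1.14 in the cortex-like and 0.879 in the striatum-like libraries. In FPKM as deposited the median entry was lower by 0.18 on the log2 scale in the striatum-like libraries, where it was higher by 0.03 after rescaling. As deposited, Pisd was 11.8 to 27.5 against 7.28 to 11.3 and again did not overlap. Cept1 did not overlap either, at 20.2 to 40.7 against 8.03 to 14.3, whereas Etnk1 did (27.1 to 45.3 against 34.9 to 47.8). The count was thus again 2 of 7, beside 30.8% of all entries, and the Ptdss1 medians were 10.0 and 10.1. Ratios within a library are free of scaling. The ratio of Pisd to Etnk1 was 0.372 to 0.731 in the cortex-like and 0.185 to 0.255 in the striatum-like libraries. For Cept1 to Etnk1 it was 0.518 to 1.50 against 0.216 to 0.371, and for Pisd to Ptdss1 1.13 to 3.18 against 0.745 to 1.04. None of these 3 overlapped. Cept1 to Ept1, the 2 transferases that can end the route, was 1.28 to 4.44 against 0.617 to 1.19, again without overlap. Pisd to Ptdss2, both lower in the striatum-like libraries, overlapped widely (1.18 to 2.40 against 1.12 to 1.75). Overlap was also seen for Pisd to Cept1 (0.407 to 1.02 against 0.550 to 0.996) and Pisd to Pcyt2 (0.555 to 1.03 against 0.437 to 0.817). So it was for Pcyt2 to Etnk1 (0.391 to 0.945 against 0.272 to 0.457) and, narrowly, Ptdss1 to Ptdss2 (0.478 to 1.24 against 1.22 to 1.99). How often ratios of other gene pairs separate the expression groups was not counted.

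**Figure D2:**
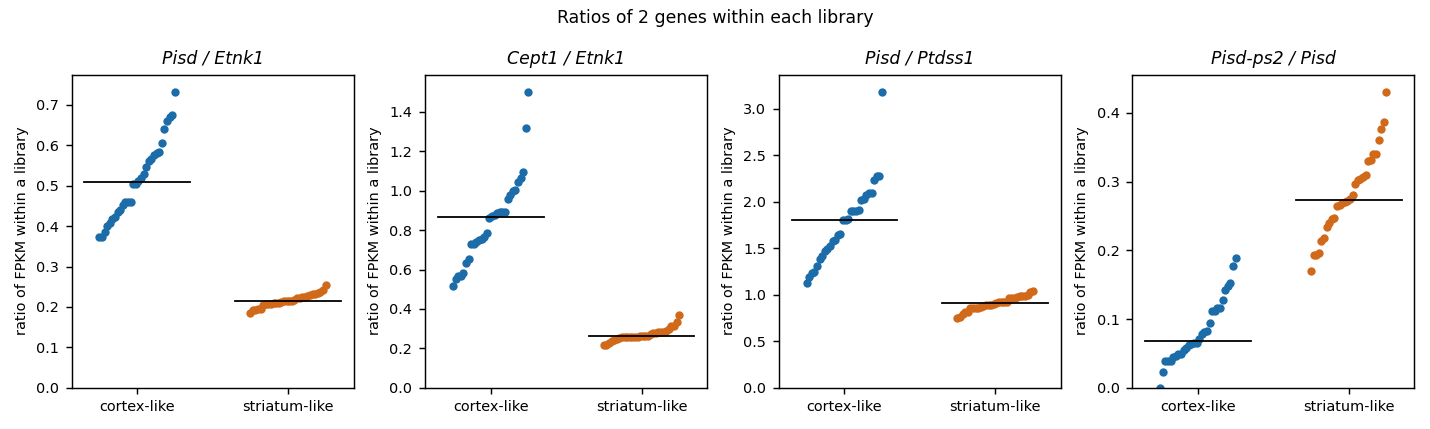
Ratios of deposited FPKM within each library (vertical axes, from 0) for 4 pairs of genes, in the 30 cortex-like and 30 striatum-like libraries, with 1 point per library in ascending order and a line at the median. The first 3 ratios do not overlap between the expression groups, and Pisd-ps2 relative to Pisd overlaps at the ends of the ranges, 0.189 and 0.170.

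The libraries labelled Δ12/Δ12 hold both expression groups under 1 label of line and genotype, 6 of each. There Pisd was 14.2 to 20.3 rescaled FPKM in the cortex-like libraries (median 16.9) and 9.29 to 10.5 in the striatum-like ones (median 9.87). Pisd, Ptdss1, Etnk1 and Cept1 did not overlap, that is 4 of 7 members beside 59.4% of all entries. In FPKM as deposited it was Pisd, Ptdss2 and Cept1, 3 of 7 beside 54.7%. As deposited, the Etnk1 medians were 41.9 in the cortex-like and 41.1 in the striatum-like libraries. The separation of Pisd was thus present among libraries that share 1 label of line and genotype. Whether that label holds for each of them was not tested. In neither scaling was the share of members above that of all entries. Labelled sex follows the expression group in these 12 libraries and cannot be told apart from it. Within 1 expression group, the 6 striatum-like Δ12/Δ12 libraries overlapped the 24 of the KO line in each of the 7 members. For Pisd these 24 ran from 8.94 through 10.4 to 11.9. The 6 cortex-like Δ12/Δ12 libraries likewise overlapped the other 24 cortex-like libraries, also of the Δ12 line, in all 7. Medians could still differ there. That of Etnk1 was 37.2 in Δ12/Δ12 and 30.0 in the others, and that of Ptdss1 7.73 and 9.47, whereas that of Pcyt2 was 20.6 and 20.0. The share of all entries that overlapped in these 2 comparisons was not counted, so overlap is not read as likeness. Leaving out the library with conflicting labels gave the same 2 members without overlap, beside 36.2% of entries.

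The comparison of the +/+ groups of the KO line and the Δ12 line set striatum-like against cortex-like libraries, so that line and expression group cannot be told apart. In the libraries labelled striatum, Pisd had 8.94, 9.88 and 11.9 rescaled FPKM in the KO line against 12.2, 14.7 and 17.2 in the Δ12 line and was lower by 0.52 ± 0.09 on the log2 scale (SE, n = 6 and 6, limma with Benjamini-Hochberg adjustment, adjusted p = 0.000275). Cept1 fell by 1.04 ± 0.17 (adjusted p = 0.000117 in the same limma fit) and Ptdss2 by 0.42. Etnk1 was higher by 0.68 ± 0.08 (adjusted p = 1.37e-05, limma) and Ptdss1 by 0.26, although Ptdss1 was lower by 0.06 and uncalled in FPKM as deposited. In all, 5 of 7 members were called, beside 79.4% of the 15748 entries tested. Both pseudogene entries were higher there, Pisd-ps1 by 1.39 ± 0.24 and Pisd-ps2 by 1.19 ± 0.20 (adjusted p = 0.000189 and 0.000149, limma). In the libraries labelled cortex Pisd-ps2 was higher by 1.09 ± 0.37 (adjusted p = 0.0217, limma) and Pisd-ps1 was not called (0.43 ± 0.35, adjusted p = 0.302, limma). Pcyt2 (-0.01) and Pemt (-0.58 ± 0.27, adjusted p = 0.0656 by limma) were not called. Pemt was close to the threshold. It was called in FPKM as deposited (-0.80, adjusted p = 0.0177), with the replicate block (adjusted p = 0.00189) and without Δ12-line female1, KO-line male3 or KO-line female2 (limma, adjusted p = 0.0336, 0.0428 and 0.0153). In the libraries labelled cortex the same 5 members were called, beside 68.0% of entries. This membership depended on the scaling: as deposited, Ptdss1 (0.21, adjusted p = 0.196, limma) and Etnk1 (0.28, adjusted p = 0.0639) lost the call, and Pcyt2 (-0.43, adjusted p = 0.0477) and Pemt (-0.91, adjusted p = 0.0413) gained it. Pemt (-0.75, adjusted p = 0.0668, limma) was also called with all 30 libraries (adjusted p = 0.043) and without Δ12-line male3 (-1.01, adjusted p = 0.0058) or KO-line male2 (-0.97, adjusted p = 0.0143). Pisd was lower by 0.61 ± 0.10 there (adjusted p = 0.000179, limma), with 9.49, 10.4 and 10.9 rescaled FPKM in the KO line against 14.0, 15.5 and 20.2. The smallest p that the exact permutation test within labelled sex allows, 0.005, was reached for Pisd in both. In each case the share of members called was near that of all genes.

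The comparison of KO/+ with +/+ in the KO line follows the labels. Of the libraries labelled KO/+, 6 had low Htt and 6 did not, and the KO/+ group of each tissue label held both kinds. These fits therefore do not set low-Htt libraries alone against the others and cannot decide whether a disrupted Htt allele changes these genes. In the libraries labelled striatum, Pisd had 9.48, 10.6 and 11.3 rescaled FPKM in KO/+ against 8.94, 9.88 and 11.9 in +/+, and the groups overlapped throughout. The log2 difference was 0.04 ± 0.08 (adjusted p = 0.796, limma) and -0.05 in FPKM as deposited. Of the 7 members, 1 had an unadjusted p under 0.05, against 3448 of the 15843 entries. None of the 7 was called by limma, beside 6.91% of all entries. That background of 1094 called entries was itself unsteady. It was 560 to 724 without any 1 of +/+ male1, female1 and female3 and KO/+ female1, female2 and female3, 306 as deposited, 301 with the replicate block and 135 with all 30 libraries. In the libraries labelled cortex Pisd differed by -0.01 ± 0.05 (adjusted p = 0.956, limma), with 9.73, 10.2 and 10.8 in KO/+ against 9.49, 10.4 and 10.9. Again 1 of 7 members had an unadjusted p under 0.05, against 2206 of the 15852 entries. No member was called, beside 0.0883% of entries (14). That count ran from 1 to 7 without any 1 of +/+ male2, male3, female1 and female2 and KO/+ male1 and male2. It was 110 as deposited. The member with the small unadjusted p was Ptdss1 in both tissue labels. Its log2 difference was -0.12 ± 0.05 in each (unadjusted p = 0.0337 in striatum and 0.027 in cortex, adjusted p = 0.185 and 0.293, limma). In the labelled cortex Ptdss1 had 10.0, 10.6 and 11.4 rescaled FPKM in KO/+ against 11.1, 11.6 and 11.9 in +/+.

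Since only 6 of the 12 KO/+ libraries had low Htt, the KO-line libraries were also described by Htt itself. A threshold between the highest of those 6 and the lowest of the other 18 set the strata. The 6 had Pisd of 9.69, 9.73, 10.5, 10.6, 10.7 and 10.8 rescaled FPKM. All 6 values lay within the range of the 18 others, 8.94 to 11.9 with a median of 10.2. Etnk1 was 45.9 to 52.4 against 43.5 to 50.9 and Cept1 11.3 to 13.6 against 9.62 to 14.7. Ptdss1 was 10.5 to 11.3 (median 10.8) against 10.0 to 13.1 (median 11.6), and 13 of the 18 libraries were above all 6. None of the 7 members separated the strata, nor did the pseudogenes. Over all 15949 entries, 0.0188% did, namely Htt by construction, Ebf1, a transcription factor of striatal neurons (4.494 to 5.25 below the threshold against 2.71 to 4.489 rescaled FPKM above it), and Ntm, a neuronal adhesion protein (52.0 to 56.7 against 40.3 to 51.8). Ebf1 and Ntm were chosen after their values were seen.

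**Figure D3:**
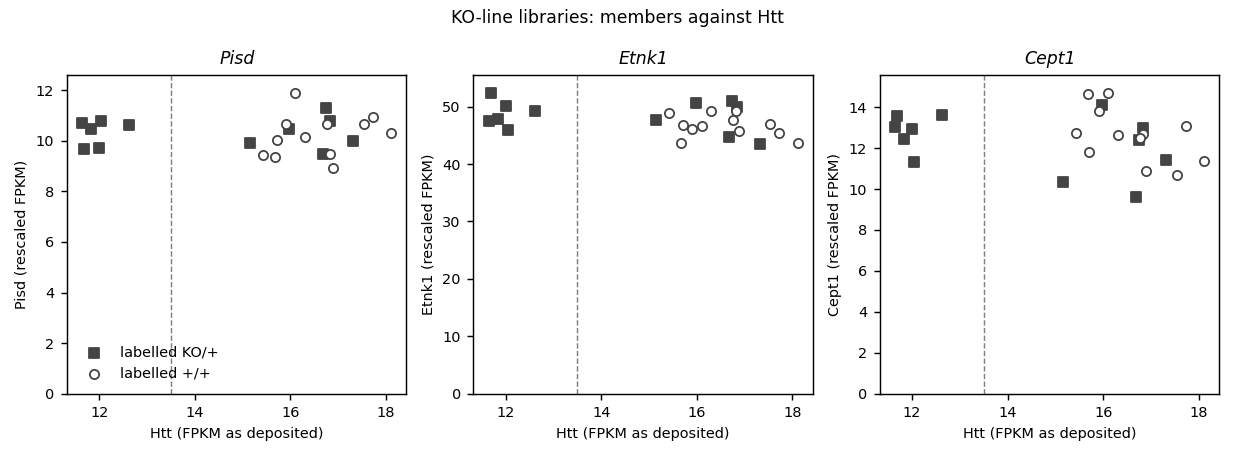
Rescaled FPKM of Pisd, Etnk1 and Cept1 (vertical axes, from 0) against deposited Htt FPKM (horizontal axis) in the 24 KO-line libraries, as filled squares where labelled KO/+ and open circles where labelled +/+. The dashed line marks the threshold, and the 6 libraries to its left lie within the range of the 18 to its right for Pisd.

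The Δ12/+ groups are labelled as having a single Δ12 allele. Pisd had 12.3, 15.2 and 17.1 rescaled FPKM in Δ12/+ labelled striatum against 12.2, 14.7 and 17.2 in +/+ and differed by 0.03 ± 0.11 on the log2 scale. In the labelled cortex it had 14.5, 16.8 and 20.6 against 14.0, 15.5 and 20.2 and differed by 0.06 ± 0.12. No member had an unadjusted p under 0.05 in either, against 486 of 15096 and 1264 of 15124 entries. Limma called none of the 7, beside 0.00662% and 0.0661% of entries (1 and 10). Leaving out 1 library gave up to 2 in the labelled striatum (without Δ12/+ female1) and up to 41 in the labelled cortex (without +/+ female3). In Δ12/Δ12 the groups were mixed. Those labelled striatum had Pisd of 9.69, 10.0, 10.5, 14.2, 14.4 and 17.7 rescaled FPKM, the lower 3 in the striatum-like libraries. The difference from +/+ was -0.23 ± 0.10 (adjusted p = 0.0988, limma), with an unadjusted p of 0.0469. In that fit 7481 of the 15494 entries had an unadjusted p under 0.05, so such a value was common among all genes. The exact permutation test of Pisd alone, within labelled sex, gave an unadjusted p = 0.025. Only Etnk1 was called among the 7 members there, higher by 0.50 ± 0.11 (adjusted p = 0.0296, limma), beside 28.1% of entries. The fold of Etnk1 stayed near that value when any 1 of the 6 libraries labelled female was left out (0.47 to 0.52). Without the sex term and with the replicate block it was 0.50, which the balanced groups fix. With the expression group as a covariate, which leaves the difference to the libraries labelled male, it was 0.41. In the labelled cortex that covariate took Etnk1 from 0.30 to -0.0031. The Etnk1 call in the labelled striatum was lost in each of these alternatives. The calls over all entries were lost with it: of 4349, 5 to 33 were left without any 1 female library, 10 without the sex term, 5 with the block and 21 with the covariate, whereas all 30 libraries gave 8077. Leaving out the library labelled Δ12/Δ12 male2 brought Pisd past the threshold (-0.29, adjusted p = 0.0446, limma). Pisd-ps1 was higher by 0.96 ± 0.27 in the same fit (adjusted p = 0.0365, limma) and differed by 0.29 ± 0.44 in the labelled cortex (adjusted p = 0.627, limma). Those labelled cortex had Pisd of 9.29 to 20.3 and differed by -0.28 ± 0.19 (adjusted p = 0.298, limma), which became 0.19 with that covariate. No member had an unadjusted p under 0.05, against 5981 of 15728 entries. None of 7 was called, beside 0.916% of entries. These 144 entries became 3827 without +/+ male2, 7985 with all 30 libraries, 12 to 29 without +/+ female2 or female3 or any 1 of the 3 Δ12/Δ12 females, and 56 to 87 without +/+ male1, male3 or female1 or Δ12/Δ12 male1.

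**Figure D4:**
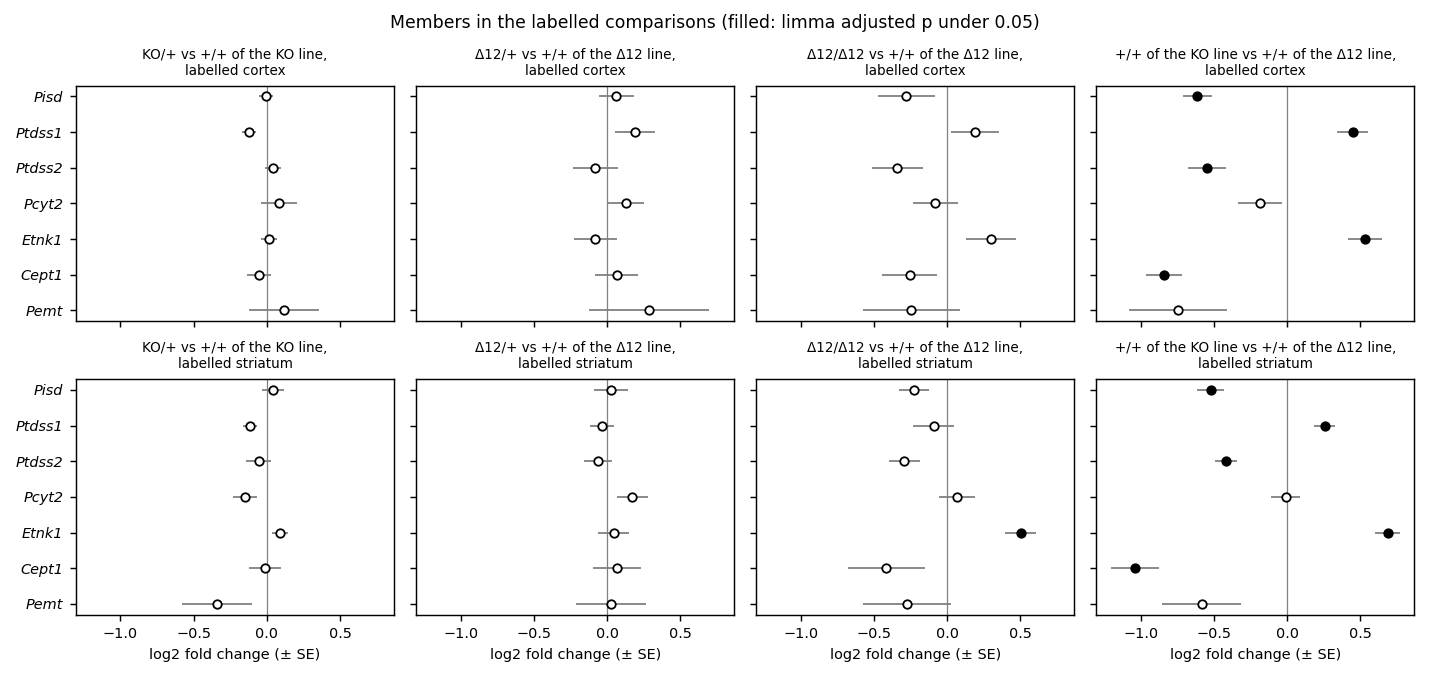
Log2 fold changes with SE (horizontal axes) of the 7 genes in the 8 comparisons of 2 labelled groups, from limma fits of 6 against 6 libraries, with filled points where the adjusted p was under 0.05. Filled points stand in the comparisons of the 2 lines (5 of 7 members each) and for Etnk1 in Δ12/Δ12 labelled striatum.

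Between the 30 libraries labelled striatum and the 30 labelled cortex Pisd differed by -0.08 ± 0.06 on the log2 scale (limma, adjusted p = 1). None of the 7 members and 0% of the 16107 entries were called by limma in that comparison, while 397 entries and none of the members had an unadjusted p under 0.05. The tests of whether the effect of KO/+, Δ12/Δ12 or Δ12/+ differed between the tissue labels likewise called none of the members and 0% of entries, with 1790, 453 and 973 entries and none of the members at an unadjusted p under 0.05. Since only 15 of the 30 libraries labelled cortex were cortex-like, these fits do not compare the regions as expression shows them.

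The lists of lipid genes, which include the 7 members, held 67 genes, of which 64 were tested in the labelled striatum of the +/+ groups. This comparison sets striatum-like libraries of the KO line against cortex-like ones of the Δ12 line. Line and expression group cannot be told apart in any of its changes. There 30 were called higher and 21 lower in the KO line, or 79.7% beside 79.4% of all entries, and the median change was 0.17 against 0.06. In the labelled cortex 26 were called higher and 22 lower of 65, or 73.8% beside 68.0%, and the median turned to -0.06 against 0.07. Values from here on are those of the labelled striatum. In the list of 6 tested prohibitins and inner-membrane proteases, which organise the membrane where PISD works and cut its proteins, 5 were lower and 1 was higher, with a median of -1.02. Phb (-1.91 ± 0.10), Yme1l1 (-1.11 ± 0.09), Oma1 (-1.19 ± 0.12) and Phb2 (-0.93 ± 0.14) were lower, and Afg3l2 (0.66 ± 0.08) was higher. Of 8 cardiolipin genes, which make the other lipid typical of that membrane, 4 were lower and 2 higher (median -0.35). Among them Ptpmt1, the phosphatase of the pathway, changed most (-2.06 ± 0.11), with medians of 43.8 rescaled FPKM in the cortex-like and 10.2 in the striatum-like libraries. All 8 genes of the CDP-choline route were called, 5 higher and 3 lower (median 0.78), among them Pcyt1b (1.90 ± 0.08), Slc44a1 (1.08 ± 0.08), Chkb (-1.22 ± 0.09) and Slc44a2 (0.91 ± 0.10).

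The counts that follow are from the same comparison of striatum-like with cortex-like libraries, in which 79.4% of all entries were called. In the 7 genes of the CDP-ethanolamine route, 3 were higher and 3 lower (median -0.01): the kinase Chkb and Etnk2 (-0.99 ± 0.08) were lower with Cept1, whereas Chka (0.78 ± 0.13) and Ept1 (0.47 ± 0.15) were higher with Etnk1. Of the 11 genes of PS synthesis and its transport to mitochondria, 5 were higher and 4 lower (median 0.26), with Triap1, a partner of the mitochondrial lipid carriers, lower by 2.27 ± 0.14, and Vps13d (1.15 ± 0.08), Osbpl8 (1.01 ± 0.08), Mfn2 (0.71 ± 0.06) and Slmo1 (0.83 ± 0.11) higher. Of 13 genes of PE use and turnover, 6 were higher and 2 lower (median 0.05, and -0.13 in the labelled cortex). Those with the smallest adjusted p were Etnppl (1.37 ± 0.10), Mboat2 (-1.72 ± 0.12), Lpcat3 (1.97 ± 0.16), Gde1 (-1.002 ± 0.09) and Phospho1 (1.69 ± 0.18). Of 6 flippase genes, which move PE and PS between leaflets, 3 were higher and 1 lower (median 0.64), the lower one being their shared subunit Tmem30a (-1.35 ± 0.06). Of 8 genes of phosphatidic acid and diacylglycerol supply, 6 were higher and 1 lower (median 0.55), with Lpin1 at 1.82 ± 0.09 and Agpat1 at 1.90 ± 0.09. The adjusted p by limma of each gene named was under 0.05.

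In KO/+ against +/+ labelled striatum, 3 of the 64 tested genes were called, or 4.69% beside 6.91% of all entries. That background of 1094 entries became 306 as deposited, 301 with the replicate block and 135 with all 30 libraries. The 3 calls were not followed through these alternatives. Osbpl8, a PS carrier at contact sites, was higher by 0.30 ± 0.08 (adjusted p = 0.046, limma). Osbpl5, a relative of it, fell by 0.43 ± 0.11 (adjusted p = 0.0423, limma). Napepld, which releases N-acylethanolamines from modified PE, fell by 0.65 ± 0.08 (adjusted p = 0.00179, limma), and its medians were 2.16 rescaled FPKM in the cortex-like and 1.51 in the striatum-like libraries. None of the 64 was called in the labelled cortex. In Δ12/Δ12 labelled striatum 11 were called higher and 3 lower, or 21.9% beside 28.1%, in the fit whose calls were lost without any 1 female library. In Δ12/Δ12 labelled cortex Agpat1 alone was called (1.35 ± 0.27, adjusted p = 0.0444, limma), or 1.54% of 65 genes beside 0.916%, a background that 1 library also moved.

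Likeness to a member was measured over the 60 libraries by Pearson's r of log2 levels, taken as deviations from the median of the expression group, among 14242 entries with a mean of at least 1. The libraries share depth, scaling and composition, and the values are a description. Most like Pisd were Rplp1 (0.63), a ribosomal protein, Tmem106c (0.63), Tmem115 (0.59), Cebpa (0.58) and Nudt3 (0.57). In the cortex-like libraries alone r of Rplp1 with Pisd was 0.73, and in the striatum-like ones 0.25. For Tmem106c these were 0.77 and -0.03, for Tmem115 0.69 and 0.21, for Cebpa 0.65 and 0.35 and for Nudt3 0.63 and 0.27. The entry most like Etnk1 was Luc7l2 (0.81), that most like Ptdss1 was Kif1bp (0.76) and that most like Cept1 was Rbm4b (0.71). For Ptdss2 it was Cyth2 (0.61), for Pemt Snapc3 (0.55) and for Pcyt2 Mtx1 (0.53). Each of these was also lower in the striatum-like libraries alone, down to 0.09 for Mtx1 against 0.73 in the cortex-like ones. Among the members themselves, r with Pisd in the cortex-like libraries lay between -0.23 for Ptdss1 and 0.42 for Pcyt2, and the latter was -0.13 in the striatum-like ones. Etnk1 had r of -0.64 with Ptdss1 and -0.66 with Ptdss2 in the cortex-like libraries and 0.09 and -0.31 in the striatum-like ones, and -0.44 and -0.41 with the scaling factor.

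Pisd ends 1976094 bases before the start of Htt on chromosome 5. The entries that overlap it, Gm20671 and Gm43695, had means of 0.104 and 0 rescaled FPKM, so that little signal was assigned to them. Of the 3 nearest entries on either side with a mean of at least 0.5, Ppp1cb, a phosphatase subunit, was 237 in the cortex-like and 66.3 in the striatum-like libraries (medians), and Prr14l was 2.94 and 9.26. Both were without overlap and in opposite directions. In KO/+ against +/+ labelled striatum, Ppp1cb (0.03), Yes1 (0.03), Gm43852 (-0.22), Prr14l (0.17) and Depdc5 (-0.17) were not called by limma, and Ywhah, a 14-3-3 protein, fell by 0.33 ± 0.06 (adjusted p = 0.00998, limma). The Ywhah call is from the fit with the unsteady background and was not followed through the alternatives. No neighbour separated the strata of Htt.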

How the data were processed

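RNA was taken from tissue labelled cortex or striatum, depleted of ribosomal RNA and sequenced from stranded libraries on a NovaSeq. Per the labels, the submitters' processing notes name bcl2fastq 2.20, Trimmomatic 0.30, TopHat2 2.0.14, SAMtools 1.3, HTSeq 0.6.1p1 and the build GRCm38.p4. The deposited values used are FPKM per gene with the authors' interval bounds, in the layout of Cufflinks, whose version and annotation release are not given in the sources used here. FPKM are not read counts, so no count model was used.

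Each of the 60 tables held 47597 entries, and 23 that were not marked OK in some library were left out. FPKM were divided by median-of-ratios scaling factors from 13235 entries (0.751 to 1.357). Long, low genes gave a rough depth of 12.7 to 27.5 M fragments (median 17.0), and in the least regular library only 34.4% of the values tested came within 0.1 of a whole fragment, so no counts were recovered. The 10 most abundant entries held 28.3% to 92.3% of the summed FPKM of a library.

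Groups follow the labels. Values were tested as log2(FPKM + 0.5) with limma 3.58.1 in R 4.3.3 (labelled sex as a covariate, entries with a mean of at least 0.5 in the libraries of the comparison, Benjamini-Hochberg adjustment over all entries, threshold 0.05). Fold changes are on that scale, which understates changes of low genes. For Pisd an exact two-sided permutation test within labelled sex was added. SE are those of limma. The labels do not say that the libraries of a group are from separate mice beyond their sex and number, and p-values measure the spread between these libraries. Between the 2 groups of a comparison, replicate numbers did not pair samples (mean correlation of deviations from -0.0923 to 0.0077). The fits across tissue labels hold 2 libraries of each labelled mouse. That pairing was not checked in this way and was used only in the alternative with a block. In the comparison of tissue labels 874 entries then had an unadjusted p under 0.05 by limma, against 397 without the block, and none was called in either. Scripts were tested on simulated data. Alternatives were FPKM as deposited, pseudocounts of 0.1 and 1, other filters, no sex term, a replicate block, all 30 libraries of a tissue label, the expression group as a covariate and each library left out. The members, the 8 gene lists and the markers were chosen with earlier results of these data known. The members, the 5 entries most like Pisd, the 1 most like each other member, the nearest entries to Pisd and, from each list, up to 5 called genes with the smallest adjusted p, with any called member of a list where few were called, were named. Python 3.11.15, pandas 2.3.3, numpy 2.4.6, scipy 1.17.1 and matplotlib 3.10.9 were used.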

Additional observations from a re-analysis of the deposited data

Results flagged for a closer look

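Among 90 sets of 6 libraries (the members and pseudogene entries in each labelled group), 3 held 1 library far from the other 5, where chance gives about 1 in 20. Pemt was 1.14 rescaled FPKM in the library labelled cortex, KO line, +/+, male2, against 0.150 to 0.515 in the other 5. In the same library Pisd-ps1 was 6.99 rescaled FPKM, against 1.55 to 2.89. Cept1 was 9.62 rescaled FPKM in the library labelled striatum, KO line, KO/+, male1, against 12.4 to 13.6 in the other 5.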

How the results depend on the processing

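In FPKM as deposited, the sign turned for Pisd (-0.0471) and Etnk1 (-0.0062) in KO/+ labelled striatum, for Ptdss2 (-0.12), Pcyt2 (-0.0802) and Etnk1 (-0.15) in KO/+ labelled cortex, for Pisd (-0.0257), Etnk1 (-0.0065) and Pemt (-0.0130) in Δ12/+ labelled striatum, for Pcyt2 (-0.0924) in Δ12/Δ12 labelled striatum and for Ptdss1 (-0.0562) between the lines labelled striatum. With the expression group as a covariate it turned in Δ12/Δ12 labelled striatum for Pcyt2 (-0.0047), Cept1 (0.30) and Pemt (0.0227), and in Δ12/Δ12 labelled cortex for Pisd (0.19), Ptdss1 (-0.0665), Etnk1 (-0.0031), Cept1 (0.0680) and Pemt (0.31). The cause was not tested. None of these values passed the threshold. The 1 member called in Δ12/Δ12 labelled striatum became 2 in FPKM as deposited and with all 30 libraries, and 0 without the sex term, with the replicate block and with the expression covariate. With all 30 libraries 2 members were called in Δ12/Δ12 labelled cortex. The exact permutation p of Pisd in Δ12/Δ12 labelled striatum (-0.23) was 0.025, unadjusted and so no gain of a call over the adjusted p of limma, whose unadjusted p was 0.0469. The Δ12/Δ12 libraries alone gave 4 members without overlap between the expression groups in place of 2, an alternative chosen after seeing the data. The replicate block, which the numbers do not warrant between 2 groups, changed no other count of members by over 1.5 times.

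Leaving out 1 library at a time gave 0 to 2 members called in Δ12/Δ12 labelled striatum. There Pisd ran from -0.29 to -0.19. In Δ12/+ labelled striatum Pisd ran from -0.0269 to 0.0887, Ptdss1 from -0.0795 to 0.0052, Etnk1 from -0.0107 to 0.10, Cept1 from -0.0266 to 0.20 and Pemt from -0.12 to 0.17. In Δ12/+ labelled cortex Etnk1 ran from -0.15 to 0.0075, Cept1 from -0.0247 to 0.15 and Pemt from -0.0166 to 0.49. In KO/+ labelled cortex Pisd ran from -0.0289 to 0.0090, Etnk1 from -0.0086 to 0.0443 and Pemt from -0.0326 to 0.26, in KO/+ labelled striatum Cept1 ran from -0.0633 to 0.0566, and between the lines labelled striatum Pcyt2 ran from -0.0655 to 0.0491. Other alternatives kept direction and side of the threshold in 170 of 181 cases for the counts of members and Pisd, and in 363 of 392 for the other members. Depth limits Pemt and the pseudogene entries most.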
